A study of Mus musculus with 56 samples.

Results

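The microRNA families miR-466, miR-467, miR-669 and miR-297 were followed in 42 mouse livers. Every row of the small RNA table whose name carried 1 of these family numbers was taken, which gave 51 of 479 microRNA rows, together with the single row of Sfmbt2 in the mRNA table. The families were chosen on these data for the higher level of miR-466i and miR-466k at day 45, so all day 45 values below are descriptions without a test. The livers were of mice with the 129Sv/J background. Of these, 24 came from mice with loxP sites around pre-miR-122, of which 3 were uninjected (day 0) and 21 had received rAAV8 with Cre under the Ef1a promoter between 1 and 200 days earlier (3 livers each at days 7, 14, 21 and 45, and 1 at each of days 1, 2, 3, 10, 17, 25, 36, 100 and 200). Livers of development numbered 14 (2 each at E14, E18, P1, P8 and P270, and 1 each at P12, P17, P21 and P28). The last 4 came from LKO mice, in which Cre under the Albumin promoter removes miR-122 from hepatocytes, 2 of them with AAV-Cre in addition. RNA-seq covered 14 livers, 3 each at days 0, 21 and 45, 1 each at days 100 and 200, and 3 of germline miR-122 knockout mice. The labels tell replicates apart by letter. Libraries of the floxed time course and of development are from separate mice. For the LKO and germline knockout livers nothing says so, so that p-values there measure the spread between these samples, which may be technical.

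Sfmbt2 encodes a Polycomb group protein with MBT repeats, and the gene is imprinted in mouse extraembryonic tissues. One of its introns carries a rodent-specific block of tandemly repeated microRNA hairpins, which is known as a large cluster active in placenta and embryonic stem cells. The hairpins resemble each other and are rich in TG and CA dinucleotides, so that mature sequences of different hairpins are often near copies of each other.

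The position of each hairpin was checked first. On mm9, 39 of the 51 members lie inside Sfmbt2 (chr2:10292137-10516880), all on its strand and all in the same intron of 62472 bases, between chr2:10388571 and chr2:10439906. They comprise 12 miR-466, 5 miR-467, 17 miR-669 and 5 miR-297 hairpins. Neighbouring hairpins start a median of 598 bases apart, and the widest step, of 17154 bases, parts the block into a proximal and a distal group. Another 10 members lie elsewhere, and 2 (mir-297a-2 and mir-466a) could not be placed by name. The 2 microRNAs for which the families were chosen are among those outside Sfmbt2: mir-466i is on chromosome 13 in an intron of Cdk13, a cyclin-dependent kinase, and mir-466k is at chr3:85271299-85271420 in an intron of Arfip1, both opposite to the strand of the gene around them. The label of an Sfmbt2 intronic family therefore covers 39 members, which are described apart from miR-466i and miR-466k below. Of the other outside members, mir-467f, mir-467g and mir-669n lie opposite to Fxr2, Grk4 and Slc30a7, and mir-297a-1, mir-297a-6, mir-466f-4, mir-466j and mir-467h between genes.

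**Figure D1:**
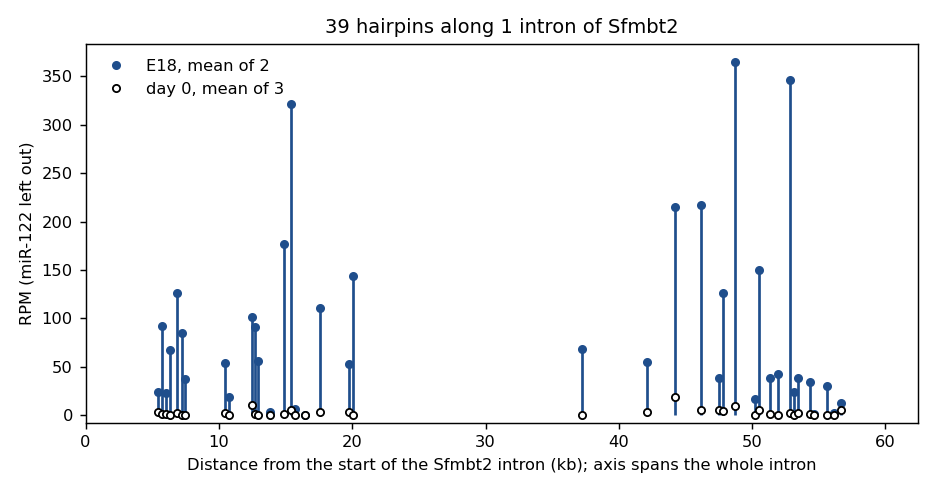
Level of each of the 39 hairpins inside Sfmbt2 (y axis, RPM with miR-122 left out) against its distance in kb from the start of the intron of 62472 bases (x axis), as the mean of 2 livers at E18 (filled) and of 3 uninjected adult livers at day 0 (open). All hairpins but mir-669j had a higher mean at E18 than at day 0, with mir-669a-2 and mir-669o at 365 and 346 RPM at E18.

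Sequences of outside members and of 3 abundant inside members are shown because they tell which reads can be assigned to which row. RefSeq (GRCm38.p6) gave mature sequences for 7 of the 51 members, all of them outside Sfmbt2. Capitals mark the seed, bases 2 to 8 of the microRNA, which pairs with target mRNAs.
mmu-miR-466i-3p: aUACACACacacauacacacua
mmu-miR-466k: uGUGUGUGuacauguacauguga
mmu-miR-467g: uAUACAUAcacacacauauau
mmu-miR-466j: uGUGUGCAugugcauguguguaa
No seed was shared among these 4 or with the other 3 (mmu-miR-467f, mmu-miR-467h and mmu-miR-669n). The first 18 bases of miR-466i-3p have 5715 exact matches in the mm9 genome on both strands, against 173 for miR-466k, 915 for miR-467g and 715 for miR-466j. The other 3 had 35, 11 and 8 matches. Over all 1731 RefSeq mouse mature microRNAs the median was 1 match, and 1.21% had more than 100.

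Hairpins of 4 members were read from mm9 at the annotated positions, and capitals mark the longest unbroken run of alternating T and G or of alternating C and A.
mir-466k (chr3:85271299-85271420, + strand): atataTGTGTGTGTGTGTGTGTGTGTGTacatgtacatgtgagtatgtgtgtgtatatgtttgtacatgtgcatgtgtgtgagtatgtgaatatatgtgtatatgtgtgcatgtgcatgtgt
mir-467e (chr2:10427348-10427434, + strand): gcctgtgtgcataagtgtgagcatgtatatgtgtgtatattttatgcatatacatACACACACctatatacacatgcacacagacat
mir-669a-2 (chr2:10431791-10431887, + strand): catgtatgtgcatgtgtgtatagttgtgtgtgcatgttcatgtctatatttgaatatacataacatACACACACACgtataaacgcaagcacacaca
mir-669o (chr2:10435927-10436022, + strand): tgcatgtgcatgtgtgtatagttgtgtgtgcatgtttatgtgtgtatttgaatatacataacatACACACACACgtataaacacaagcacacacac
The run spans 23 bases in mir-466k, which no placed member exceeded, and a median of 9 bases in the 39 hairpins of Sfmbt2. Runs of 23 bases or more occur in 10.8% of the 1577 microRNA genes of the annotation (GENCODE), so such a run is not particular to these hairpins. Inside Sfmbt2, 37 of the 39 hairpins share at least 1 identical stretch of 18 bases with another hairpin of the cluster, with a median of 11 partners. Allowing 2 mismatches, as the authors' alignment did, mature miR-466i-3p also matches 3 hairpins of Sfmbt2 (miR-466f-1, miR-466f-2 and miR-466f-3), and miR-466k matches 5 (miR-466b-1, miR-466b-2, miR-466b-3, miR-466d and miR-466e). How the authors counted a read that matches several rows is not stated, so values of single rows, and the split of reads between inside and outside rows, are uncertain by this.

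Levels are given as RPM, with miR-122 left out of the total, because miR-122 takes between 0.11% and 89.5% of a library. The libraries held 21824 to 795617 reads other than miR-122, so that 1 read was worth 1.26 to 45.8 RPM. The 51 members together had 9798 reads in the 42 livers, of which 86.4% fell to the 39 inside members and 7.60% to miR-466i and miR-466k. The 5 most abundant rows (miR-467e, miR-669a-2, miR-669o, miR-669a-1 and miR-466i) held 37.7% of these reads, and 14 rows had fewer than 50 reads each.

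At day 0 miR-466i was at 4.49, 12.002 and 8.10 RPM in the 3 livers, which is 1, 3 and 2 reads. At day 45 it was at 63.0, 72.5 and 100.5 RPM, which is 5, 14 and 53 reads. All 3 livers of day 45 were above all 3 of day 0, with a mean 9.60 times higher, as the choice of this microRNA fixed. miR-466k was at 9.36, 19.8 and 3.90 RPM at day 0 and at 126.04, 67.3 and 64.5 RPM at day 45, a mean 7.79 times higher. With 1 library left out this was 5.89 times (without day 0 replicate C) to 12.96 times (without day 0 replicate B). Together they went from 19.2 ± 10.96 RPM (SD, n = 3) to 165 ± 24.6 RPM (SD, n = 3). The fitted log2 differences were 3.17 and 3.02, where the median of the 253 microRNAs fitted was 0.52.

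The times that played no part in the choice did not show a steady course for this pair. At day 7, miR-466i was at 89.8, 16.6 and 8.68 RPM in replicates A, B and C, and at day 14 at 32.1, 118 and 7.61 RPM. At day 21 it was at 50.2, 37.3 and 5.01 RPM, so that 1 liver at each time lay within the range of day 0 and the others above it. The sum of the pair over the 18 injected livers of all times other than day 45 ran from 4.90 RPM (day 2, 1 read) over a median of 36.1 to 183 RPM (day 14 replicate B), against 140 to 189 RPM in the 3 livers of day 45. Of these 18 livers, 11 lay above the highest liver of day 0 (31.8 RPM) and 1 reached the lowest of day 45. The later livers, at days 100 and 200, were at 30.1 and 20.9 RPM, within the range of day 0.

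**Figure D2:**
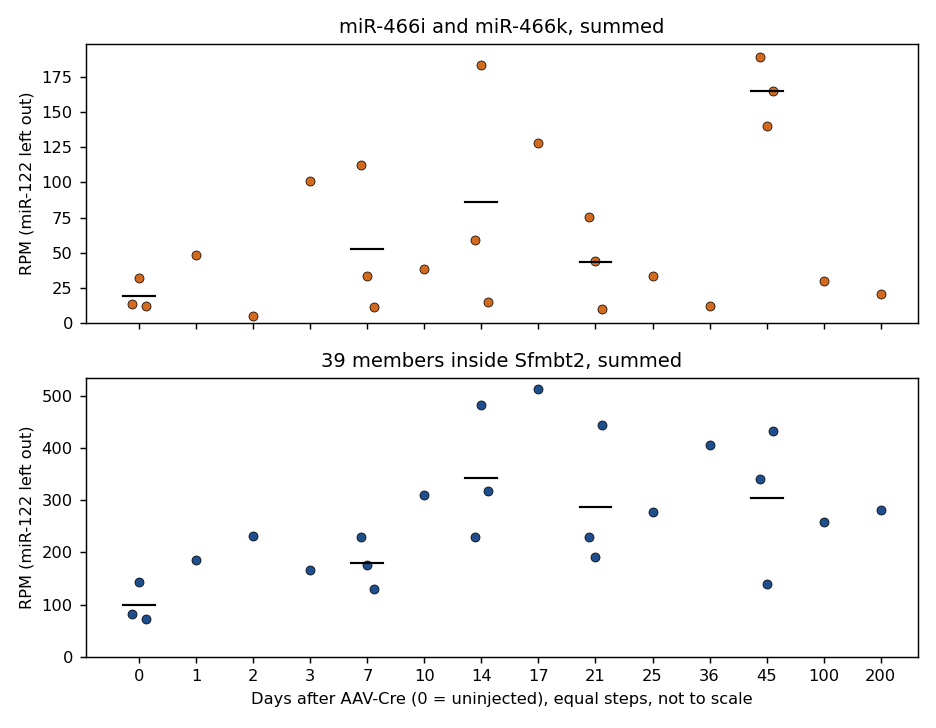
Summed level of miR-466i and miR-466k (upper panel) and of the 39 members inside Sfmbt2 (lower panel) in the 24 floxed livers, in RPM with miR-122 left out, against days after AAV-Cre. Each point is 1 liver and bars are means of 3. The pair is high in all 3 livers of day 45 and scattered at days 7 to 21, and the inside members are at 72 to 142.6 RPM at day 0 and at 130 to 512 RPM in the injected livers.

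By limma on log2(RPM + 1) with Benjamini-Hochberg adjustment over the 253 microRNAs that averaged 10 RPM or more, which kept 11 of the 51 members, neither of the pair was called at day 7, 14 or 21. The log2 differences of miR-466i from day 0 were 1.52 ± 1.01 (SE), 1.90 ± 1.01 and 1.39 ± 1.01, with adjusted p = 0.91, 0.34 and 0.49 from limma. Those of miR-466k were 0.20 ± 0.93, 1.30 ± 0.93 and 0.08 ± 0.93, with adjusted p = 0.998, 0.46 and 0.99 from limma, and they turned negative at days 7 and 21 when libraries were centred on their median. Across the 24 floxed livers, miR-466i and miR-466k moved together (Pearson r = 0.81, Spearman rho = 0.79, on log2(RPM + 10)), which is a description that shares libraries and depth and includes the 3 livers of day 45 on which the pair was chosen. In the 14 livers of development the same r was 0.08.

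The sum of the 39 members inside Sfmbt2 was at 82.0, 142.6 and 71.7 RPM in the 3 livers of day 0, from 18, 36 and 18 reads. Day 7 gave 230, 176 and 130 RPM, day 14 gave 230, 482 and 317 RPM, and day 21 gave 228, 191 and 443 RPM. At day 45 the sum was at 341, 140 and 432 RPM, a mean 3.08 times that of day 0. Of the 18 injected livers at other times than day 45, 17 were above the highest of day 0, the exception being day 7 replicate C at 130 RPM. The sums of days 100 and 200 were 257 and 281 RPM, so the inside members stood above the day 0 range there, where the pair did not.

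Few single members of the cluster passed the test. At day 7 no member of the 11 tested was called (1 had an unadjusted p under 0.05), where 0.395% of all microRNAs were called. At days 14 and 21 the 1 member called was miR-669o, where the share over all microRNAs was 1.19% and 5.14%. miR-669o was at 0, 7.84 and 0 RPM at day 0 (2 reads in all), at 16.0, 50.2 and 30.6 RPM at day 14 and at 29.6, 11.6 and 76.7 RPM at day 21. All 6 livers were above all of day 0. The log2 differences were 3.87 ± 0.93 (SE, adjusted p = 0.043 by limma) and 3.91 ± 0.93 (adjusted p = 0.016 by limma), and over the alternatives the adjusted p ran from 0.0039 to 0.22 and from 0.00079 to 0.11. The call of day 14 was lost without any 1 of day 0 replicates A and C, day 7 replicates A, B and C, day 14 replicates B and C, day 21 replicate A and day 45 replicates B and C, with 0 members then called. The call of day 21 was lost without day 0 replicate A or C or day 21 replicate C, again with 0 members called. At day 7 miR-669o was at 28.1, 29.9 and 17.4 RPM, also above all of day 0, with a log2 difference of 3.62 (SE 0.93, adjusted p = 0.12 by limma). At day 45 miR-669o was at 12.6, 10.3 and 9.52 RPM. The median log2 difference of the 8 inside members tested over days 7, 14 and 21 came to 0.28, 1.95 and 1.61, beside 0.33, 0.68 and 0.56 over all microRNAs tested. The filter kept the more abundant members only. Without it, the 38 inside members with a read had medians of 0.58, 1.15 and 0.89, beside 0.25, 0.52 and 0.42 over all rows. In that fit 0, 0 and 1 of the 50 members with a read were called by limma (3, 7 and 6 had an unadjusted p under 0.05), where 0.235%, 0.706% and 2.35% of all rows were called.

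The most abundant inside member, miR-467e, was at 18.3, 12.002 and 24.3 RPM at day 0, at 21.5, 60.2 and 19.0 RPM at day 14 and at 25.0, 23.3 and 52.7 RPM at day 21, and the groups overlapped. Its highest value in a floxed liver was 153 RPM, in the liver of day 36. The other inside members among the 10 most abundant in floxed livers (miR-669a-1, miR-669a-2, miR-669c, miR-466d, miR-467c and miR-467d) had log2 differences from day 0 of -0.37 to 3.26 at days 7 to 21, and none was called.

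In development the cluster was higher before and around birth than in the adult. The 39 inside members summed to 4889 and 1739 RPM in the 2 livers of E14, to 2719 and 4100 RPM at E18, to 3526 and 2073 RPM at P1 and to 1553 and 1225 RPM at P8. At P270 they summed to 183 and 77.8 RPM. All 8 livers from E14 to P8 were above both of P270 and above all 24 floxed adult livers, and the mean of E18 was 26.1 times that of P270, or 43.8 times without P270 replicate A. Among the stages with 2 livers, the order of the means was E18, E14, P1, P8 and P270, and the first 3 overlapped. The single livers between P8 and P270 did not continue a steady fall, at 688 RPM at P12, 539 RPM at P17, 2917 RPM at P21 and 1315 RPM at P28. Depth limits the low end: P270 replicate A held 21824 reads other than miR-122, of which 4 were of inside members. The pooled level of P270 was 86.2 RPM with an exact 95% Poisson interval of 55.2 to 128, which covers counting error only.

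**Figure D3:**
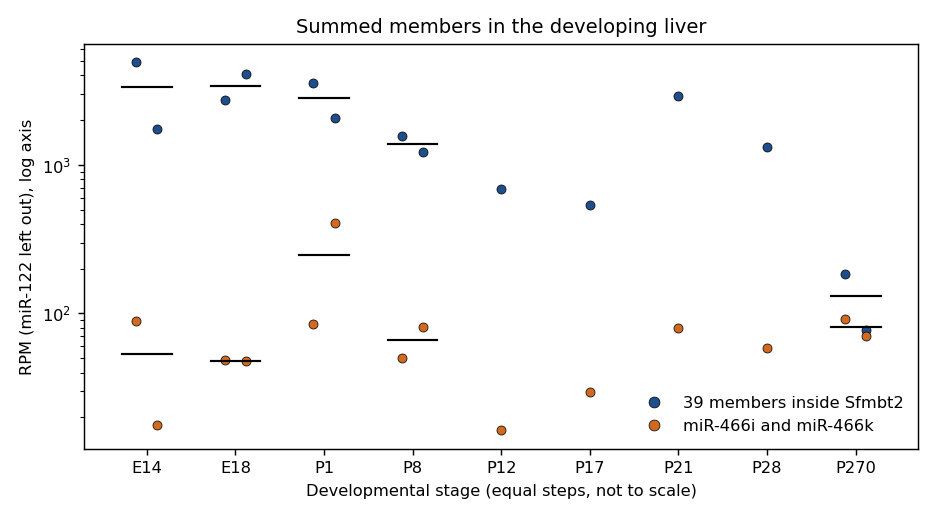
Summed level of the 39 members inside Sfmbt2 (blue) and of miR-466i and miR-466k (orange) in 14 livers from E14 to P270, in RPM with miR-122 left out, on a log axis. Each point is 1 liver and bars are means of 2. The inside members are at 1225 to 4889 RPM from E14 to P8 and at 77.8 and 183 RPM at P270, and the pair is at 17.6 to 409 RPM up to P8 and at 70.2 and 91.3 RPM at P270.

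Each of the 4 families inside Sfmbt2 was higher in all 8 livers from E14 to P8 than in both of P270, and miR-467 differed from the other 3 in the order of its means. The 17 miR-669 hairpins were at 605 to 1951 RPM from E14 to P1, at 359 and 562 RPM at P8 and at 0 and 27.2 RPM at P270. The 12 miR-466 hairpins were at 365 to 1056 RPM from E14 to P1, at 147 and 356 RPM at P8 and at 0 and 27.2 RPM at P270. The 5 miR-467 hairpins were at 572 to 2444 RPM from E14 to P8 and at 15.5 and 183 RPM at P270. The 5 miR-297 hairpins were lowest, at 32.7 to 206 RPM from E14 to P8 and at 0 and 7.90 RPM at P270. The means of miR-466, miR-669 and miR-297 ran in the order E18, P1, E14, P8 and P270, and that of miR-467 was highest at E14, at 1582 RPM, against 762 RPM at E18. The first place of E14 in miR-467 rests on replicate A, at 2444 RPM, as replicate B was at 721 RPM, below the mean of E18. In the single liver of P21 the miR-466 family was at 1518 RPM, above every liver from E14 to P1, and miR-467 was at 959 RPM there and at 818 RPM at P28, above its mean of E18. The 2 livers of E14 lay far apart in miR-467a, which was at 1001 RPM in replicate A and 20.1 RPM in replicate B, where 1 read was worth 29.4 and 2.52 RPM.

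The test used limma over the 315 microRNAs that averaged 10 RPM or more, of which 33 were members (29 inside Sfmbt2, 3 outside, 1 unplaced). Against P270, 20 members were called at E14, 27 at E18, 24 at P1 and 13 at P8, all of them higher. Over all microRNAs the called share was 52.1%, 53%, 44.8% and 40%, so a large part of the table differed between these livers. Members that are near 0 in the adult passed the filter through the early stages, where they are high, so these counts are not read as a result about the families. Without the filter, 20, 31, 24 and 12 of 50 members with a read were called, all higher, where 35.8%, 40.1%, 32.7% and 27.9% of all rows were called, and at P8 the 12 of 50 were a smaller share than that of all rows. The median log2 difference of the inside members was 4.96, 5.73, 5.31 and 3.55, beside 2.67, 3.10, 2.68 and 2.13 over all microRNAs tested. Without the filter it was 4.62, 5.28, 4.70 and 2.72 over 38 inside members, beside 1.63, 2.16, 1.92 and 1.08 over all rows. These medians include rows without a read at P270, whose fitted difference depends on the added 1 RPM. With libraries centred on that common shift, 8, 9, 8 and 5 members were called, of which 6, 8, 8 and 4 were higher and the others (miR-466i at E14, E18 and P8, and miR-467g at E14) lower. In that fit 51.4%, 44.1%, 42.9% and 34.6% of all microRNAs were called, so the members' shares of 33 were below those of the table. With the 3 livers of day 0 as the reference in place of P270, an alternative chosen after seeing the data, 21, 27, 23 and 13 members were called, all higher, where 47.6%, 47.6%, 40.3% and 30.2% of all microRNAs were. P270 replicate A held the fewest reads other than miR-122. Without it 1 liver of P270 was left, and the mean inside sum of E18 was 43.8 times that of P270, or 18.6 times without replicate B instead.

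For the single members inside Sfmbt2 and miR-466a, the adjusted p against P270 is that of the fit without the filter on low values. miR-669a-2 was at 295 and 161 RPM at E14, at 283 and 448 RPM at E18, at 419 and 177 RPM at P1 and at 163 and 32.7 RPM at P8, and had no read in either liver of P270. Its mean was at least 33.9-fold higher at E18 than at P270, taking 3 reads over both P270 libraries (10.8 RPM) as the floor (adjusted p = 0.00042 by limma, range over alternatives 3.9e-05 to 0.0032). miR-669o was at 314 and 379 RPM at E18 and had no read at P270, at least 32.1-fold higher (adjusted p = 0.00013 by limma, range 1.4e-05 to 0.0019). Both were among the called members at all 4 stages. The floor rests on P270 replicate B, and without it 3 reads are worth 137 RPM, which lowers these bounds to 2.66-fold and 2.52-fold, leaves at most 1.09-fold for miR-467c, miR-466c and miR-466d and none for miR-297c.

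Of the miR-467 family, miR-467e was at 177 and 597 RPM at E14, at 139 and 290 RPM at E18, at 203 and 259 RPM at P1 and at 269 and 408 RPM at P8, and at 0 and 11.7 RPM at P270, with 3 reads. It was called at all 4 stages (adjusted p = 0.00063, 0.0016, 0.0013 and 0.00098 by limma), but not at E18 with libraries centred on their median. miR-467c was at 116 and 163 RPM at P8, no lower than at E14, where it was at 29.5 and 73.1 RPM. It had no read at P270, which puts P8 at least 13.0-fold higher (adjusted p = 0.00016 by limma). Both lay at P8 within or above their range at E14 to P1, where miR-669a-2 and miR-669o were lower than at E18 in each liver. That difference in course was not tested.

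Of the miR-466 hairpins inside Sfmbt2, miR-466c was at 106 and 182 RPM at E18 (the mean at least 13.4-fold above P270, adjusted p = 0.00014 by limma) and miR-466d at 106 and 195 RPM (at least 14.0-fold, adjusted p = 0.0027 by limma). miR-466e and miR-466b-2 had means of 111 and 68.7 RPM, and none of the 4 had a read at P270. With the filter, the inside members tested that were not called at E18 were miR-466f-1, miR-466h and miR-467a. Of the miR-297 hairpins, miR-297c was at 71.9 and 41.0 RPM at P1, a mean of 56.4 RPM, at least 5.24-fold above P270 (adjusted p = 0.0095 by limma). The unplaced miR-466a had a mean of 96.9 RPM at E18 and was called there (adjusted p = 0.018 by limma). Neither miR-297c at P1 nor miR-466a at E18 was called with libraries centred on their median.

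For the pair outside Sfmbt2, no stage from E14 to P8 was called against P270 in the fit with the filter. miR-466i was at 58.9 and 15.1 RPM at E14, at 24.3 and 38.9 RPM at E18, at 50.7 and 177 RPM at P1 and at 33.1 and 0 RPM at P8, against 91.3 and 43.0 RPM at P270 from 2 and 11 reads. Its log2 differences from P270 were -1.04 ± 1.54 (SE) at E14 and -1.002 ± 1.54 at E18 (adjusted p = 0.59 and 0.60 by limma). miR-466k was at 29.5 and 2.50 RPM at E14, at 24.3 and 8.75 RPM at E18 and at 33.8 and 232 RPM at P1, against 0 and 27.2 RPM at P270. Its difference at P1 was 4.08 ± 1.71 (SE, adjusted p = 0.063 by limma), and 1.68 to 6.49 with 1 library left out. Replicate B, of 73356 reads other than miR-122, carried the high value. From E14 to P8 the pair made up 2.10% of the reads of all members, at day 0 14.1%, at day 45 29.3% and at P270 40.8%.

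Markers of other cells moved with the stage. The summed blood microRNAs (miR-142, miR-144, miR-150, miR-223 and miR-451, all detected) were at 108960 to 198330 RPM at E18 and P1 and at 11455 and 15970 RPM at P270. The cholangiocyte microRNAs (miR-200a, miR-200b and miR-200c) were at 64281 and 26110 RPM at E14 and at 2792 to 5137 RPM from E18 to P8, against 687 and 230 RPM at P270, and the stellate cell and fibroblast microRNAs at 5603 to 57803 RPM from E14 to P8, against 3987 and 3714 RPM. Both sums were above P270 in all 8 early livers, as the inside members were. The hepatocyte microRNAs miR-192 and miR-194 summed to 111 and 383 RPM at E14 against 29298 and 68044 RPM at P270. They were at 26580 to 30707 RPM at E18, 21007 to 21381 RPM at P1 and 29724 to 40208 RPM at P8. At E14 the blood sum was 55388 RPM in replicate A, with the inside members at 4889 RPM, and 8001 RPM in replicate B, below both livers of P270, with the inside members at 1739 RPM. At P8 it was 19163 and 38499 RPM with the inside members at 1225 and 1553 RPM. The part of blood and these other cells in the early levels was not tested, and in whole liver fewer cells of a type and less RNA per cell cannot be told apart. Over the 14 livers of development the inside members and the blood sum had Pearson r = 0.58 and Spearman rho = 0.62, and over all 42 livers r = 0.60 and rho = 0.44, as descriptions over livers that share stages and depth. In the floxed livers the blood sum was at 10144 to 22877 RPM at day 0 and 9281 to 27695 RPM at day 45, and the cholangiocyte microRNAs at 291 to 1109 and 3830 to 5446 RPM. The stellate cell and fibroblast microRNAs were at 4670 to 9548 and 8359 to 28816 RPM. The hepatocyte microRNAs were at 32224 to 82785 RPM at day 0 and at 16141 to 34007 RPM at day 45. In the single livers of days 10, 17 and 36, which had inside sums of 309, 512 and 405 RPM, the blood sum was 34628, 41906 and 34466 RPM, above all of day 0. Over the 24 floxed livers r between the inside members and the blood sum was 0.46 (rho = 0.46), again a description. The cholangiocyte sum was above all of day 0 in all 6 livers of days 14 and 21, at 1252 to 1650 and 1314 to 2860 RPM, the times at which miR-669o was called. The part of these cells in the values of the floxed livers was not tested.

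The LKO livers allowed the members to be compared where miR-122 was low without a vector, at 3.09% and 9.38% of reads against 59.2% to 73.3% at day 0. The inside members summed to 255.7 and 78.4 RPM in the 2 LKO livers and to 175 and 222 RPM in the 2 LKO livers with AAV-Cre, and the pair to 219 and 35.3 RPM and to 28.2 and 185 RPM. In each group 1 of the 2 livers was far above the other in the pair, and both groups overlapped. None of the 33 members tested was called between LKO and day 0 (4 had an unadjusted p under 0.05), where 13.3% of all microRNAs were called. None was called between LKO with AAV-Cre and LKO (1 with an unadjusted p under 0.05), where 0% of all microRNAs were. miR-466i was at 137 and 19.6 RPM in LKO, a log2 difference of 2.62 ± 1.403 from day 0 (SE, adjusted p = 0.33 by limma).

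Other microRNAs with a like course over the 42 livers were found by Pearson correlation on log2(RPM + 10). The sum of all members was most like mmu-mir-503 (r = 0.82), mmu-mir-301b (r = 0.80), mmu-mir-301a (r = 0.80), mmu-mir-322 (r = 0.79) and mmu-mir-130b (r = 0.78). The values mix fetal and adult livers, share libraries and depth, and describe likeness only. For the pair, looked at after its values were seen, the highest were mmu-mir-1187 (r = 0.52), mmu-mir-712 (r = 0.48) and mmu-mir-1186 (r = 0.42), and none of the 5 listed for the cluster was among its 5 highest.

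The mRNA of Sfmbt2 itself was low in these livers. It was at 0.086, 0.025 and 0.027 FPKM at day 0, at 0.032, 0.043 and 0.038 FPKM at day 21, at 0.056, 0.039 and 0.038 FPKM at day 45, at 0.020 and 0.043 FPKM at days 100 and 200 and at 0.010, 0.012 and 0.033 FPKM in the germline knockout. Knockout replicate C, the highest of the 3, stood apart from the other knockout livers in other genes too, with Apob, an apolipoprotein of hepatocytes, at 488 FPKM against 98.2 and 117 FPKM, and Krt19, a cholangiocyte keratin, at 3.35 FPKM against 23.7 and 25.4 FPKM. No liver reached the 0.1 FPKM that a gene needed on average to enter the fit, and the highest was 1 uninjected liver. On log2(FPKM + 0.1) the difference from day 0 was -0.06 at day 21 (exact permutation test, two-sided, p = 1.0), -0.13 at days 100 and 200 (p = 0.8, exact, 2 against 3 livers) and -0.28 in the knockout (p = 0.3, exact), or -0.37 without knockout replicate C (p = 0.2, exact). The smallest p that these exact permutation tests can give is 0.1 with 3 against 3 livers and 0.2 with 2 against 3. FPKM carry no fragment numbers, so no counting limit can be set for so low a value. No small RNA library of a germline knockout and no RNA-seq library of a fetal liver was analysed here, so the fetal level of the hairpins has no mRNA value beside it.

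**Figure D4:**
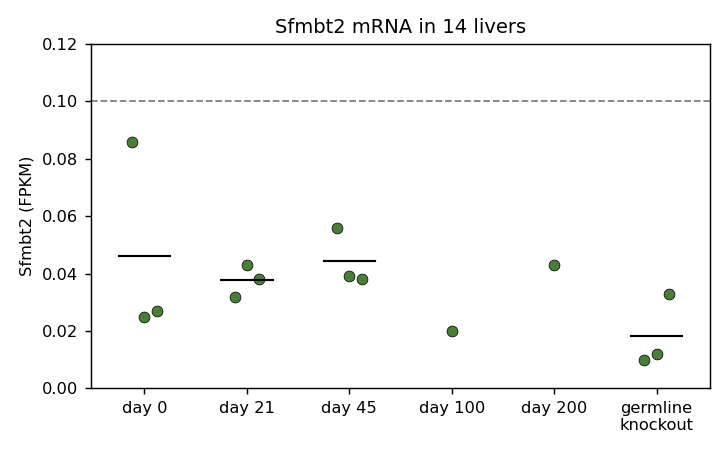
Sfmbt2 in the 14 RNA-seq livers, in FPKM. Each point is 1 liver, bars are means of 3, and the dashed line is the mean of 0.1 FPKM required for the fit. All points are below the line, from 0.010 FPKM in a knockout liver to 0.086 FPKM in a liver of day 0.

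The genes around mir-466i and mir-466k were expressed. Cdk13 was at 4.72, 5.99 and 5.59 FPKM at day 0 and at 5.51, 6.76 and 5.63 FPKM at day 45. Arfip1 was at 8.73, 9.34 and 8.56 FPKM at day 0 and at 10.9, 14.5 and 11.1 FPKM at day 45. Both hairpins lie on the other strand, so these levels do not measure their precursors. Of the 5 genes around outside hairpins, taken after the placement was known, none was called at day 21, where 8.7% of all genes were, or in the knockout, where 31.9% were. At days 100 and 200 only Grk4, a receptor kinase, was called among the 5 (log2 difference 1.03 ± 0.33 SE, adjusted p = 0.032 by limma), where 36% of all genes were, and the call was lost without day 0 replicate A or C (adjusted p = 0.086 and 0.077 by limma). Grk4 was low, at 0.176, 0.264 and 0.189 FPKM at day 0 and at 0.622 and 0.443 FPKM at days 100 and 200. Without knockout replicate C, 3 of the 5 were called lower in the knockout, where 60% of all genes were called.

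The genes with FPKM most like Sfmbt2 over the 14 livers were Clec2d (Pearson r = 0.86), Bnip3 (r = 0.85), Pole4 (r = 0.84), Psma4 (r = 0.83) and 2210015D19Rik (r = 0.83), which is a description at levels under 0.1 FPKM of Sfmbt2. Polycomb genes were taken as the pathway of Sfmbt2. Of 40 genes listed, 37 were tested, and 1 was called higher and 0 lower at day 21, where 8.7% of all genes were called. At days 100 and 200, 10 were higher and 0 lower (36% of all genes called), and in the germline knockout 6 were higher and 2 lower (31.9% of all genes called). Without knockout replicate C, an alternative chosen after seeing the data, 9 were higher and 16 lower, where 60% of all genes were called, and without replicate A or B 3 were higher and 0 lower, where 18.2% and 14.9% were, so the knockout counts depended on which livers were kept. With 1 library left out, the count of day 21 ran from 0 to 2, at 0 without any 1 liver of day 0, 21 or 45 or knockout replicate B and at 2 without knockout replicate C, and that of days 100 and 200 from 6 (without day 0 replicate B, where 29.1% of all genes were called) to 17 (without knockout replicate C, where 48.1% were). The highest were Scml4, a lymphocyte-expressed Polycomb protein (log2 difference 3.20 ± 0.46 SE at days 100 and 200, adjusted p = 0.00051 by limma), and Cbx6, a reader subunit of PRC1 (2.66 ± 0.41 SE, adjusted p = 0.00065 by limma). Scml4 was at 0.024 to 0.041 FPKM at day 0, at 0.11 to 0.17 FPKM at day 21 and at 1.29 and 0.93 FPKM at days 100 and 200. Markers of other cells moved with these livers. The summed lymphocyte markers (8 genes) were at 5.31 to 12.6 FPKM at day 0, 32.5 to 59.0 at day 21 and 35.1 and 47.8 at days 100 and 200. The endothelial markers (5 genes) were at 21.7 to 50.3, 58.5 to 73.4, and 58.6 and 54.8 FPKM. The cholangiocyte markers (5 genes) were at 46.1 to 59.2, 137 to 203, and 2920 and 1920 FPKM, the stellate cell and fibroblast markers (6 genes) at 131 to 180, up to 286, and 516 and 513 FPKM, the macrophage markers (6 genes) at up to 399, 542 to 702, and 805 and 1015 FPKM, and the proliferation markers (4 genes) at 0.996 to 4.41, 4.30 to 7.71, and 24.7 and 8.82 FPKM. In the knockout the cholangiocyte markers were at 551 to 794 FPKM, the lymphocyte markers at 13.7 to 28.4 FPKM, the stellate cell and fibroblast markers at 175 to 277 FPKM and the macrophage markers at 284 to 788 FPKM. The endothelial markers were at 28.8 to 37.7 FPKM there, within the range of day 0. The part of these cells in the Polycomb genes was not tested. Scml4 and Cbx6 stayed called in all 12 fits with 1 library of another group or day 0 left out, and the livers of days 100 and 200 themselves were kept in each. Ezh2, the PRC2 methyltransferase, rose by 0.95 ± 0.33 (SE, adjusted p = 0.040 by limma) at days 100 and 200, a call lost in 8 of 12 fits with 1 library left out (adjusted p = 0.0065 to 0.10 by limma). Sfmbt1, the paralogue of Sfmbt2, was at 1.43, 1.76 and 3.88 FPKM in the knockout and at 3.88, 5.41 and 4.38 FPKM at day 0, so that replicate C lay at the lowest liver of day 0. The log2 difference was -1.04 (SE 0.30, adjusted p = 0.025 by limma). It was -1.45 without knockout replicate C (adjusted p = 8.5e-05 by limma), and the call was lost without day 0 replicate B or C or knockout replicate A or B (adjusted p = 0.057 to 0.10 by limma).

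Of 11 genes near Sfmbt2, 10 were tested, of which 1 was called at day 21 (8.7% of all genes), 4 at days 100 and 200 (36%) and 2 in the knockout (31.9%), so that the last 2 counts were close to or below the share of all genes. Gata3, a transcription factor of T cells, was higher at days 100 and 200 (log2 difference 1.25 ± 0.33 SE, adjusted p = 0.012 by limma) and stayed called in all 12 fits with 1 library left out. It was low, at 0.071, 0.008 and 0.045 FPKM at day 0 and at 0.204 and 0.26 FPKM at days 100 and 200. Every liver of day 0 lay below the mean of 0.1 FPKM required for the fit, which Gata3 met through livers of other groups. The calls of Prkcq, a T cell kinase (day 21, and days 100 and 200), of Itih5 and Atp5c1 (days 100 and 200) and of Atp5c1 and Kin (knockout) were each lost in 2 to 10 of the 12 or 14 fits with 1 library left out. Without knockout replicate C, 2 of the 10 were higher and 3 lower in the knockout, where 60% of all genes were called. Of the hepatocyte markers, Alb was listed at 0 in all 14 livers, although every liver uses it, and the other 5 together were at 11311 FPKM or more in every liver.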

How the data were processed

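Small RNA of 42 livers was aligned by the authors to mouse microRNAs of miRBase release 15 with Bowtie 0.12.7, allowing 2 mismatches, and deposited as RPM with 1 added to each of 479 rows. RNA-seq reads were aligned by the authors to mm9 with TopHat and deposited as upper-quartile FPKM from Cufflinks 2.2.1. The 1 was subtracted here, miR-122 was left out and each library was rescaled to the same total. Low values of all libraries were whole multiples (within 0.11 RPM) of a step taken as 1 read, which served for depth only. FPKM rows of 1 symbol were summed. The listed reads were 34105 to 929445 a library.

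Tests used limma 3.58.1 (R 4.3.3) on log2(RPM + 1) of rows averaging 10 RPM or more, in 1 fit of the floxed livers (days 0, 7, 14, 21 and 45) and 1 of development, LKO and day 0, and on log2(FPKM + 0.1) of genes averaging 0.1 FPKM or more. Calls had a Benjamini-Hochberg adjusted p under 0.05 over all features, and the fits were tested on simulated data. Replicate letters did not pair samples (same-letter deviations correlated above 0.1 in 15 of 30, 20 of 42 and 7 of 18 pairs). Hairpin sequences of members other than the 4 shown are not reported here. The members, lists and tests were chosen with earlier results of these data known. Members named are miR-466i and miR-466k, the 10 most abundant in floxed and 5 in developmental livers, and up to 10 called in a comparison.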

Additional observations from a re-analysis of the deposited data

Results flagged for a closer look

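Small RNA livers with 1 library per time entered no test. Those whose exact 95% Poisson interval lies wholly above the highest liver of their reference group are given here with that interval. It covers counting error only, and the reference is taken without its own counting error. The highest inside sum rested on 36 reads at day 0 and on 4 reads at P270, and the highest pair sum of day 0 on 8 reads. The 39 members inside Sfmbt2 summed to 231 RPM at day 2 (170 to 306), 309 RPM at day 10 (242 to 389), 512 RPM at day 17 (401 to 646), 277 RPM at day 25 (230 to 333), 405 RPM at day 36 (350 to 465.9), 257 RPM at day 100 (212 to 310) and 281 RPM at day 200 (240 to 325), against at most 142.6 RPM at day 0. The blood microRNAs were at 20927, 34628, 41906, 23941, 34466, 27757 and 11145 RPM in these 7 livers, against 10144 to 22877 RPM at day 0. The cholangiocyte microRNAs were at 1131, 1335, 2592, 2997, 1449, 8401 and 8306 RPM there, above the 291 to 1109 RPM of day 0 in all 7. The part of either was not tested. miR-466i and miR-466k summed to 101.1 RPM at day 3 (67.2 to 146) and 128 RPM at day 17 (76.0 to 203), against at most 31.8 RPM at day 0. At day 3 the blood microRNAs were at 31427 RPM, above day 0, and the cholangiocyte microRNAs at 857 RPM, within its range. The stellate cell and fibroblast microRNAs were at 19901 RPM at day 3 and 18560 RPM at day 17, against at most 9548 RPM at day 0. The part of these cells in the pair was not tested.

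In development the inside members summed to 688 RPM at P12 (586 to 798), 539 RPM at P17 (444 to 652), 2917 RPM at P21 (2286 to 3667) and 1315 RPM at P28 (958 to 1757), against at most 183 RPM at P270. The P21 and P28 libraries held 25032 and 34265 reads other than miR-122, and their order against P12 and P17 was not tested. The blood microRNAs were at 18280 RPM at P12, 7431 RPM at P17, 12264 RPM at P21 and 30935 RPM at P28, against 11455 and 15970 RPM at P270, so that P12 and P28 lay above P270, P21 within its range and P17 below it. The sums of 3 other cell types were above both livers of P270 in all 4, with the cholangiocyte microRNAs at 1758 to 6090 RPM against 230 and 687, the stellate cell and fibroblast microRNAs at 5513 to 22781 RPM against 3714 and 3987, and the endothelial microRNAs at 32628 to 64387 RPM against 22590 and 25970. Their part was not tested.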

How the results depend on the processing

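Values rest on few reads: 14 members had fewer than 50 in all livers. Against day 0, the call of day 14 became 0 with log2(RPM + 10), with a mean of at least 1 RPM, with no filter and with libraries centred on their median, and 6 over all reads, and that of day 21 became 0 with log2(RPM + 10) and 5 over all reads, where 8 members were tested and 59.7% and 60.9% of all microRNAs were called. Over all reads, where miR-122 takes part in the total, 2 of 27 members tested were called in LKO (29.7% of all) and 6 in place of 13 at P8 (31.7% of all), and the day 45 log2 ratio of summed members was 3.40 in place of 1.91. Centred, the counts of E14, E18, P1 and P8 were 8, 9, 8 and 5. The cause was not tested. With 1 library left out (a lone sample is assumed to vary like the others), the counts ran 0 to 1 (day 7), 0 to 2 (days 14, 21 and LKO), 0 to 0 (LKO with AAV-Cre), 15 to 23 (E14), 18 to 27 (E18), 13 to 25 (P1, lowest without P1 replicate A) and 10 to 16 (P8), and the log2 ratio 1.72 to 2.29.

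With 1 library left out, Sfmbt2 differences ran -0.16 to 0.13 (day 21), -0.26 to 0.056 (days 100 and 200) and -0.38 to -0.096 (knockout), the first 2 turning positive without day 0 replicate A, and with libraries centred they were -0.094, -0.31 and -0.32. Directions of uncalled members turned: centred, miR-466k was -0.19 (day 7), -0.46 (day 21), -2.03 (E14) and -1.68 (E18), and miR-466i -2.35 (P1). miR-466i over all reads was 0.83 (E14), 0.27 (E18) and 0.0020 (LKO with AAV-Cre), and with day 0 as reference 1.84 (E14) and 1.88 (E18). With 1 library left out, miR-466k ran -0.33 to 1.00 (day 7), -0.55 to 0.60 (day 21), -1.45 to 3.37 (E14), -0.84 to 3.97 (E18) and -1.98 to 0.78 (LKO with AAV-Cre), and miR-466i -0.30 to 1.48 (P1) and -1.45 to 1.29 (LKO with AAV-Cre). Over all alternatives of the named members, 1727 values kept direction and call, 89 lost a call, 11 gained one and 23 changed direction.

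The replicate block, whose letters are not known to pair the samples, left the counts at 0, 1, 1, 20, 27, 24, 13, 0 and 0. It left Sfmbt2 at -0.06 (day 21) and -0.28 (knockout). Days 100 and 200 have no block value, a mean of at least 1 FPKM leaves no Sfmbt2 value, and count models were not run.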
